A study of Arabidopsis thaliana with 15 samples.

Results

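The xyloglucan endotransglucosylase/hydrolase (XTH) genes of Arabidopsis thaliana were taken as the rows of the count table named XTH and a number, together with AT5G57560, the touch-induced gene TCH4, which is XTH22. This rule found 32 of 32833 genes. XTH17 stands in the table as ATXTH17 (AT1G65310), so it was not a member and its values are given separately. The members fall into the usual groups of the family by their number, with 11 members in group 1 (XTH1 to XTH11), 14 in group 2 (XTH12 to XTH26) and 7 in group 3 (XTH27 to XTH33).

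Read counts of mRNA from complete rosettes of 28-day-old plants were compared between 5 lines with 3 biological replicates each, in a study of targeted misexpression of the transcription factor gene NAC052. In the activation-tagged line, the GLDT promoter of Flaveria trinervia, which is active in the leaf bundle, sits inside the coding sequence of NAC052. In the CRISPR/Cas line, an inserted nucleotide shifts the reading frame of NAC052, so neither of these lines keeps the full-length endogenous protein by design. That promoter drives a shortened NAC052 coding sequence in the GLDT::5'truncatedNAC052 line and a complete one in the GLDT::NAC052 line, inserted at random, and both keep the endogenous gene. The reference line is Col-0 with a green fluorescent protein that is sent to the chloroplast and driven by the GLDPA promoter of F. trinervia, and the other 4 lines carry this reporter too.

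Xyloglucan is a hemicellulose that binds to and runs between the cellulose microfibrils of the primary wall. XTH enzymes cut a xyloglucan chain and either join the new end to another chain, which is endotransglucosylation, or pass it to water, which is hydrolysis. In leaves they are known for wall loosening and wall building while cells expand. Most members act as endotransglucosylases, and the hydrolase activity is best known for XTH31 and XTH32 of group 3.

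The libraries held 28074380 to 38579309 counts each (median 36691617). The library names place the reference and activation-tagged libraries (6) on sequencing lane 1 and the other 9 libraries on lane 8. A difference of a lane 8 line from the reference line therefore cannot be told apart from a difference between lanes, whereas activation-tagged against reference and the pairs among the lane 8 lines lie within a lane. NAC052 itself had 64.0, 61.7 and 80.0 counts per 1000000 (CPM) in the activation-tagged libraries, 22.2, 20.1 and 22.6 CPM in the CRISPR/Cas libraries, 25.0, 66.0 and 52.5 CPM in the GLDT::5'truncatedNAC052 libraries and 279.9, 27.2 and 165 CPM in the GLDT::NAC052 libraries, against 19.7, 20.6 and 19.5 CPM in the reference libraries. A count over the whole gene does not read the CRISPR/Cas frameshift, and replicate 2 of GLDT::NAC052 and replicate 1 of GLDT::5'truncatedNAC052 had far less NAC052 than the other libraries of their lines. The leaf markers RBCS1A, RCA, CA1 and CAB1 summed to 37200 to 59300 CPM in every library. Of the root markers, MYB36 and EXPA7 were at 0 counts and COBL9 at or under 3 counts in all 15 libraries, CASP1 stayed at or under 0.222 CPM, and ESB1 had 3.45 to 7.57 CPM. Of the floral markers, AP1 stayed at or under 3 counts in all libraries, while AG reached 1.45 CPM and SEP3 0.886 CPM.

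The catalytic site is what the members share beyond their names. In the following stretches of coding exons, read from the RefSeq TAIR10.1 genome 5′ to 3′ along the gene, the 2 codons in capitals encode the glutamates that serve as nucleophile and as acid/base in this enzyme family. They are shown for the 10 members that were called in at least 1 comparison.
XTH4, chr2:2764493-2764519, plus strand: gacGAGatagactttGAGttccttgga
XTH7, chr4:17776854-17776880, minus strand: gacGAGcttgattttGAGttcttagga
XTH8, chr1:3879651-3879677, minus strand: gacGAGatagatttcGAAtttctaggg
XTH9, chr4:1416538-1416564, plus strand: aacGAAttcgattttGAGttcttaggg
XTH18, chr4:14826569-14826595, minus strand: gatGAGattgatttcGAGttcttagga
XTH23, chr4:13129072-13129098, plus strand: gacGAGattgactttGAGttcttggga
XTH24, chr4:14820042-14820068, minus strand: gatGAGattgattttGAGttcttgggt
XTH31, chr3:16447882-16447908, minus strand: gatGAGgtcgatatcGAGtttctaggg
XTH32, chr2:15474073-15474099, minus strand: gatGAGgtagacataGAAtttttgggg
XTH33, chr1:3480306-3480332, minus strand: gacGAGatagacataGAAttgttgggt

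The site was found in 31 of 32 members (all but XTH11, by this pattern), and no 2 of the 31 stretches of 27 bases were identical. The fifth codon encoded the same residue in 26 of 31 sites, among them every site of groups 1 and 2. The 5 exceptions were XTH29, XTH30, XTH31, XTH32 and XTH33, all of group 3. Over whole coding sequences, the 496 pairs of members were 44.0% to 89.4% identical with a median of 54.6%. The longest identical run between 2 member transcripts was 68 bases, in XTH18 and XTH19 (87.6% identical), and no pair shared a run as long as an untrimmed read of 150 bases. How reads that match several places were counted is not given in the sources used here, so the split between close copies such as XTH18 and XTH19, or XTH12 and XTH13 (89.4% identical), carries that uncertainty. XTH15 overlaps AT4G14120 on the opposite strand, and whether the counting used the strand is not stated, so its counts are uncertain too.

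Of the 32 members, 25 had at least 1 count in 15 libraries. XTH1, XTH2, XTH3, XTH13, XTH14, XTH21 and XTH26 had none, which allows up to 3 counts, or 0.0705 to 0.118 CPM depending on the library (counting error only). XTH12 had 1 count in all, XTH20 had 6 counts in 2 libraries and XTH29 had 0 to 30 counts a library. The other 22 members had enough counts for the test, 8 of 11 in group 1, 8 of 14 in group 2 and 6 of 7 in group 3. A level of 1 CPM was reached in all 3 libraries of a line by 21 members in at least 1 line and by 14 members in every line.

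Levels per kilobase of exon (CPM over exon length, RPKM) spanned a wide range among the 22 tested members. XTH4, which is known for endotransglucosylase activity in expanding tissue, was first with a mean of 90.5 RPKM over the 5 lines. XTH27, with a known role in vein development of rosette leaves, followed at 78.2 RPKM, then XTH6 at 75.3 RPKM, XTH24 at 58.6 RPKM and XTH7 at 33.2 RPKM. At the low end, XTH33, XTH11, XTH19 and XTH10 averaged 0.863, 0.853, 0.794 and 0.783 RPKM over the lines, and their libraries overlapped. These 5 leading members held 69.2% to 75.5% of the summed RPKM of the family in any library. XTH4, XTH27 and XTH6 were close neighbours: in the reference line they averaged 133 ± 12.4, 85.1 ± 11.8 and 81.2 ± 22.6 RPKM (SD, n = 3 each), so XTH4 stood above the others there, whereas in the CRISPR/Cas line they averaged 53.5 ± 6.38, 64.6 ± 2.99 and 60.4 ± 10.07 RPKM. There the order by mean was XTH27, XTH6 and XTH4, the libraries of XTH6 overlapped those of both others, and every XTH27 library was above every XTH4 library.

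**Figure D1:**
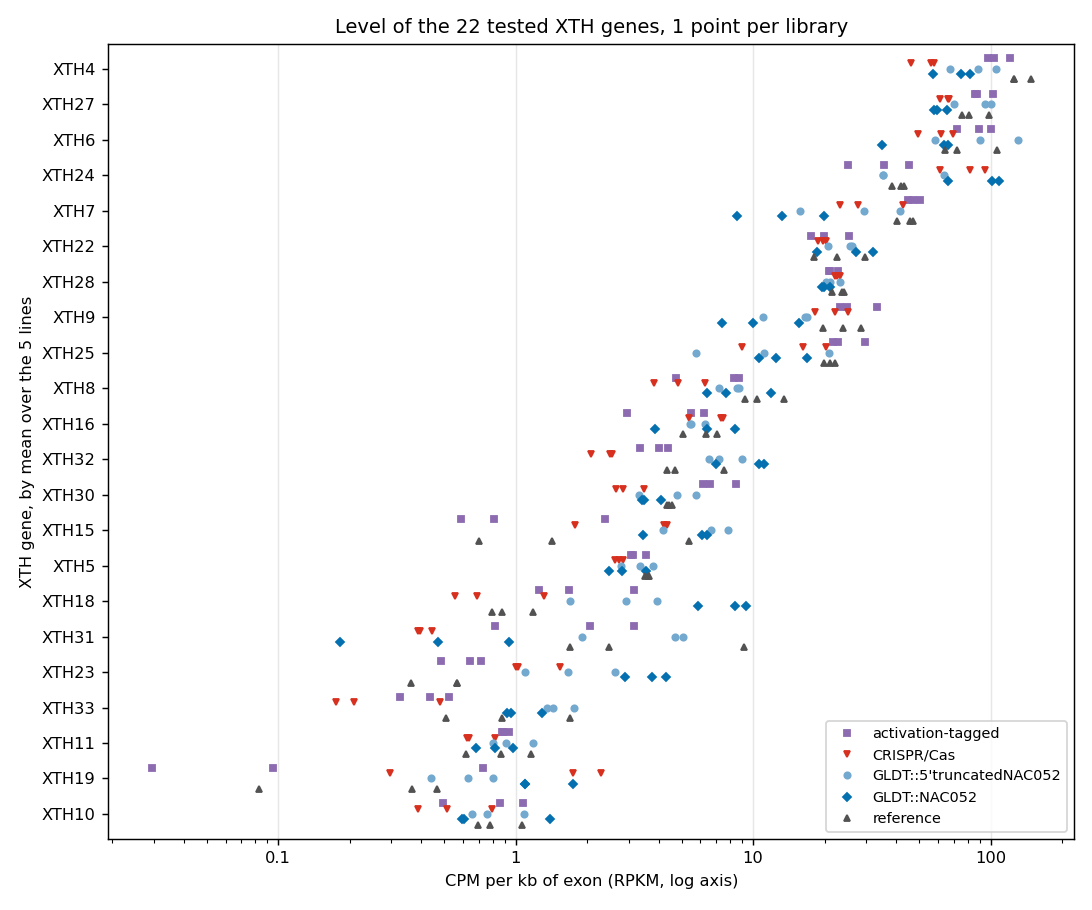
Level of each of the 22 tested XTH genes (CPM per kilobase of exon, log axis) in each of the 15 libraries, with the genes ordered by their mean over the 5 lines and 1 symbol per line. XTH4 leads at a mean of 90.5 RPKM and XTH10 is last at 0.783 RPKM, and XTH18, XTH23 and XTH31 spread widely between lines.

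The summed level of all 32 members was 733 ± 37.6 CPM in the activation-tagged line, 567 ± 71.8 CPM in the CRISPR/Cas line, 681 ± 111 CPM in GLDT::5'truncatedNAC052 and 598 ± 43.4 CPM in GLDT::NAC052, against 766 ± 66.4 CPM in the reference line (SD, n = 3 each). This sum is mostly the few abundant members and is given without a test. Complete rosettes were sampled, so fewer cells of a type and less RNA per cell cannot be told apart in any value here.

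Genes were called at a fold change above 2 or below 0.5 and an adjusted p under 0.05 (edgeR quasi-likelihood test, Benjamini-Hochberg adjustment over all 19663 tested genes). By this rule, 0 of 22 members were called in the activation-tagged line against the reference line, where 1.14% of all tested genes were called (0.295% higher and 0.849% lower). In the CRISPR/Cas line 6 members were called against the reference line, 1 higher and 5 lower. Of all tested genes, 6.73% were called there, 3.3% higher and 3.44% lower. In GLDT::5'truncatedNAC052 2 members were called, both higher, beside 0.941% of all tested genes, 0.62% higher and 0.32% lower. In GLDT::NAC052 6 members were called, 3 higher and 3 lower, beside 8.21% of all tested genes, 5.36% higher and 2.85% lower. These 4 comparisons share the same 3 reference libraries. Libraries did not overlap with the reference libraries for 10 of 22 members in CRISPR/Cas, beside 47.2% of all tested genes. This held for 5 members in GLDT::5'truncatedNAC052 (25.6% of all tested genes) and for 12 in GLDT::NAC052 (47.0%).

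Within lane 8, 4 members were called in CRISPR/Cas against GLDT::5'truncatedNAC052, all of them lower, beside 8.08% of all tested genes (3.4% higher and 4.68% lower). In CRISPR/Cas against GLDT::NAC052 1 member was called higher and 4 lower, beside 12.9% of all tested genes (5.21% higher and 7.69% lower). In GLDT::NAC052 against GLDT::5'truncatedNAC052 3 members were called higher and 1 lower, beside 1.75% of all tested genes (1.49% higher and 0.27% lower). In these 3 pairs, in this order, libraries did not overlap for 9, 8 and 7 members, beside 42.8%, 53.0% and 22.6% of all tested genes. The median log2 fold change of the 22 members was -0.39 in CRISPR/Cas and -0.14 in GLDT::NAC052 against the reference line, beside 0 for all tested genes in both.

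**Figure D2:**
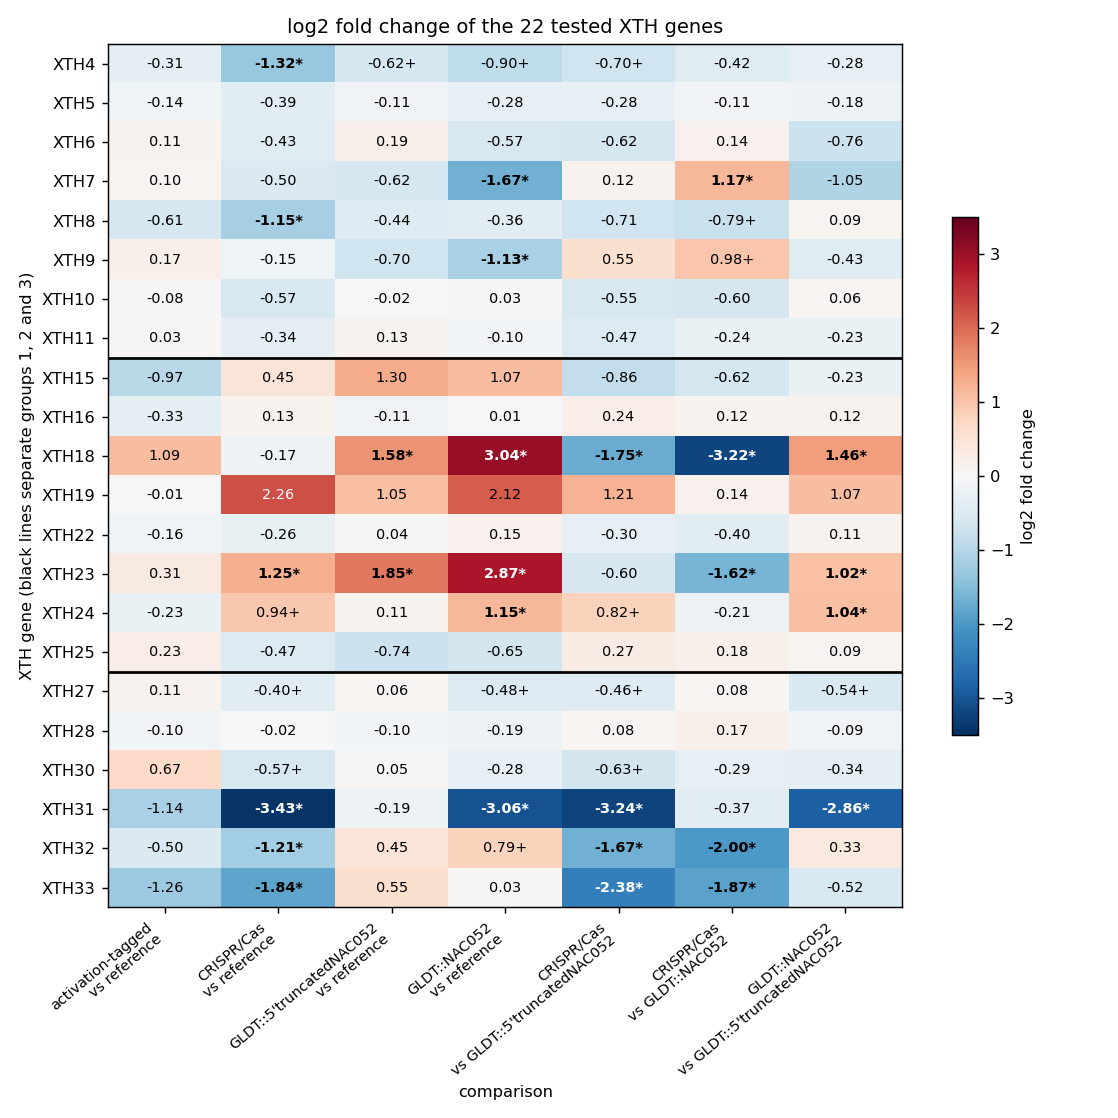
Fold change (log2, colour and number) of the 22 tested XTH genes, 1 row per gene and 1 column per comparison, with the line named first over the line named second. An asterisk marks a call by fold and adjusted p, and a plus sign an adjusted p under 0.05 with a fold between 0.5 and 2. Calls gather in XTH18 and XTH23 (group 2) and in XTH31, XTH32 and XTH33 (group 3), and the first column holds none.

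In group 2, XTH18, XTH23 and XTH24 rose in the GLDT::NAC052 line, and no member of this group was called lower against the reference line. XTH25 of this group lay wholly below the reference line in GLDT::NAC052 without a call (log2 -0.65, adjusted p = 0.181). In GLDT::5'truncatedNAC052 its log2 fold change was -0.74 (adjusted p = 0.257), and without replicate 2 of that line it was called lower (log2 -1.31, adjusted p = 0.0436). XTH18 is known from elongating roots and hypocotyls, XTH23 was described earlier as the xyloglucan endotransglycosylase-related gene XTR6, and XTH24 as MERI5B, a gene of meristems. XTH18 and XTH24 are neighbours on chromosome 4, with XTH19 next to them. The 250 bases before the annotated starts are shown for XTH18 and XTH23, the members with the highest fold changes in GLDT::NAC052, and for XTH31, the member with the lowest (RefSeq TAIR10.1, 5′ to 3′ along the gene). Capitals mark TTGAC, the core of the W-box read by WRKY factors, and CGCGTT, a motif read by CAMTA factors, on either strand.
XTH18, chr4:14827212-14827461, minus strand: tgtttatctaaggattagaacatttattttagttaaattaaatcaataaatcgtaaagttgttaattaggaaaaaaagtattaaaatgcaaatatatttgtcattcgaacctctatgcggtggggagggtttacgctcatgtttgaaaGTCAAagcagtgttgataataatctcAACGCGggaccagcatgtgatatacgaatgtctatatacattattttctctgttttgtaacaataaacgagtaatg
XTH23, chr4:13128144-13128393, plus strand: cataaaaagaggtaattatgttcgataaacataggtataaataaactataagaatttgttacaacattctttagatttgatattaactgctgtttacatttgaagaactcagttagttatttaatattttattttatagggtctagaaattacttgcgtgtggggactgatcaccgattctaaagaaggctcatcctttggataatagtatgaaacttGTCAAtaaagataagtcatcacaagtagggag
XTH31, chr3:16448845-16449094, minus strand: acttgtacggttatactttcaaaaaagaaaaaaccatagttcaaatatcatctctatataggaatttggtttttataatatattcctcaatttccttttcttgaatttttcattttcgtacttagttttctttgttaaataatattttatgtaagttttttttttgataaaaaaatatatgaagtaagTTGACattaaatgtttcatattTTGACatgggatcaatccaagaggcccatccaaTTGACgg

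TTGAC lies in the windows of 11 of the 22 tested members, the shown ones among them, beside 44.9% of 19565 windows of tested genes. CGCGTT lies in the window of XTH18 only among the 22, beside 2.92% of all windows. The G-box CACGTG was searched as well and lies in none of the 22 windows, beside 7.41% of all windows. The searched motifs do not overlap each other, and these matches describe the letters alone.

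XTH18 had 7.42, 10.6 and 11.8 CPM in the GLDT::NAC052 libraries, 3.68, 2.15 and 4.97 CPM in the GLDT::5'truncatedNAC052 libraries, 1.66, 0.869 and 0.704 CPM in the CRISPR/Cas libraries and 1.58, 2.12 and 3.96 CPM in the activation-tagged libraries, against 1.11, 1.495 and 1.01 CPM in the reference libraries. The GLDT::NAC052 libraries were the 3 highest of all 15, and both GLDT lines lay wholly above the reference line. The fold change against the reference line was 8.25 in GLDT::NAC052 (log2 3.04 ± 0.40 SE, adjusted p = 0.000147) and 2.99 in GLDT::5'truncatedNAC052 (log2 1.58 ± 0.40, adjusted p = 0.0365). The activation-tagged libraries also lay above the reference libraries without overlap, but with a log2 fold change of 1.09 ± 0.41 the gene was not called (adjusted p = 0.163).

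The pairs within lane 8 separated the lines for XTH18. It was lower in CRISPR/Cas than in GLDT::NAC052 (log2 -3.22 ± 0.40, adjusted p = 3.67e-05) and than in GLDT::5'truncatedNAC052 (log2 -1.75 ± 0.40, adjusted p = 0.00544). It was higher in GLDT::NAC052 than in GLDT::5'truncatedNAC052 (log2 1.46 ± 0.37, adjusted p = 0.0279).

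XTH23 had 3.98, 5.89 and 5.18 CPM in GLDT::NAC052, 2.28, 1.51 and 3.61 CPM in GLDT::5'truncatedNAC052, 2.11, 1.41 and 1.38 CPM in CRISPR/Cas and 0.981, 0.669 and 0.881 CPM in the activation-tagged line, against 0.499, 0.778 and 0.779 CPM in the reference line. All 9 libraries of the lane 8 lines were above all 6 libraries of lane 1. The fold change against the reference line was 7.32 in GLDT::NAC052 (log2 2.87 ± 0.33 SE, adjusted p = 6.66e-05), 3.61 in GLDT::5'truncatedNAC052 (log2 1.85 ± 0.33, adjusted p = 0.00842) and 2.38 in CRISPR/Cas (log2 1.25 ± 0.33, adjusted p = 0.0156). The call in CRISPR/Cas was lost without reference replicate 1 (log2 1.06, adjusted p = 0.0626) and without CRISPR/Cas replicate 1 (log2 1.03, adjusted p = 0.0635). Within lane 8 it was lower in CRISPR/Cas than in GLDT::NAC052 (log2 -1.62 ± 0.30, adjusted p = 0.000734) and higher in GLDT::NAC052 than in GLDT::5'truncatedNAC052 (log2 1.02 ± 0.29, adjusted p = 0.0455). The study picked XTH23 from these same libraries for its pattern across the lines, so these values are not independent evidence of its direction. In that pattern it was higher in both GLDT lines and within the fold limit in the activation-tagged and CRISPR/Cas lines. The call in CRISPR/Cas is not part of that pattern.

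XTH24, the most abundant member of group 2, had 122, 80.4 and 131 CPM in GLDT::NAC052, 42.6, 42.8 and 77.2 CPM in GLDT::5'truncatedNAC052, 99.1, 114 and 74.5 CPM in CRISPR/Cas and 43.2, 54.8 and 30.3 CPM in the activation-tagged line, against 52.5, 46.7 and 51.0 CPM in the reference line. GLDT::NAC052 and CRISPR/Cas lay wholly above the reference line, and replicate 3 of GLDT::5'truncatedNAC052 was above its other libraries. The fold change against the reference line was 2.22 in GLDT::NAC052 (log2 1.15 ± 0.26 SE, adjusted p = 0.00443), a call, and 1.92 in CRISPR/Cas (log2 0.94 ± 0.26, adjusted p = 0.0196), short of the fold limit. GLDT::NAC052 was higher than GLDT::5'truncatedNAC052 (log2 1.04 ± 0.26, adjusted p = 0.0286), while the log2 fold change of CRISPR/Cas over GLDT::NAC052 was -0.21 and was not called.

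**Figure D3:**
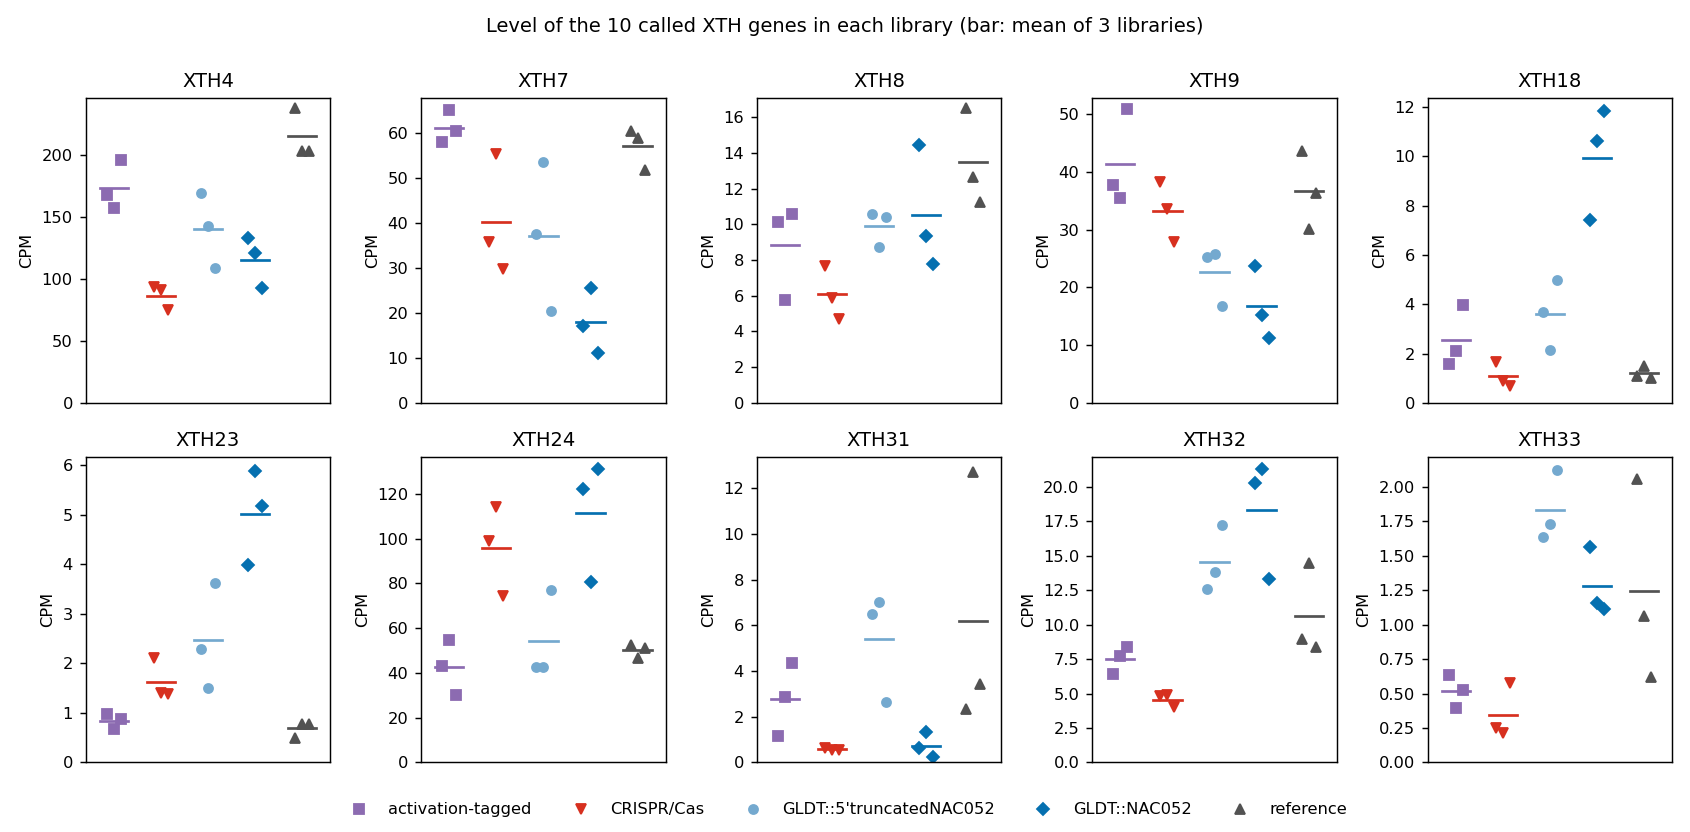
Level (CPM, linear axis from 0) of the 10 XTH genes called in at least 1 comparison, with 1 point per library, a bar at the mean of the 3 libraries and the lines in the order of the legend from left to right. XTH18 and XTH23 are highest in GLDT::NAC052, and XTH31 lies below 1.4 CPM in every CRISPR/Cas and GLDT::NAC052 library. The reference libraries of XTH31 are spread by replicate 2 at 12.7 CPM.

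Group 3 holds the hydrolase pair, whose 2 genes both fell in CRISPR/Cas and differed in direction in GLDT::NAC052. XTH31 fell in both CRISPR/Cas and GLDT::NAC052, whereas XTH32 fell in CRISPR/Cas only and was higher in GLDT::NAC052 by adjusted p without reaching the fold limit. XTH33, a member predicted to be anchored in the plasma membrane, fell in CRISPR/Cas.

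XTH31 had 0.618, 0.540 and 0.553 CPM in CRISPR/Cas, 0.654, 1.31 and 0.254 CPM in GLDT::NAC052, 6.50, 7.03 and 2.66 CPM in GLDT::5'truncatedNAC052 and 1.14, 2.87 and 4.37 CPM in the activation-tagged line, against 2.36, 12.7 and 3.44 CPM in the reference line. Every CRISPR/Cas and GLDT::NAC052 library was below every reference library, and replicate 2 of the reference line stood far above its other libraries. The CRISPR/Cas libraries held only 22, 23 and 22 counts of this gene. XTH31 was 10.8-fold lower in CRISPR/Cas (log2 -3.43 ± 0.72 SE, adjusted p = 0.0046) and 8.32-fold lower in GLDT::NAC052 (log2 -3.06 ± 0.70, adjusted p = 0.0046). Without reference replicate 2 these log2 fold changes were -2.34 (adjusted p = 0.0241) and -1.96 (adjusted p = 0.0293), and without GLDT::NAC052 replicate 2 the second was -3.75 (adjusted p = 0.00505).

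Within lane 8, XTH31 was lower in CRISPR/Cas than in GLDT::5'truncatedNAC052 (log2 -3.24 ± 0.72, adjusted p = 0.00463) and lower in GLDT::NAC052 than in GLDT::5'truncatedNAC052 (log2 -2.86 ± 0.70, adjusted p = 0.0258). In each of these pairs the libraries did not overlap. Without GLDT::NAC052 replicate 2 the second of these was -3.56 (adjusted p = 0.0312). That call held in only 2 of the 6 fits that left out a library. Without GLDT::NAC052 replicate 1, for example, it was lost (log2 -2.77, adjusted p = 0.0613). GLDT::5'truncatedNAC052 differed from the reference line by -0.19 on the log2 scale and CRISPR/Cas from GLDT::NAC052 by -0.37, neither of them called.

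XTH32 had 4.80, 4.89 and 3.997 CPM in CRISPR/Cas, 20.3, 21.3 and 13.3 CPM in GLDT::NAC052, 12.6, 13.8 and 17.2 CPM in GLDT::5'truncatedNAC052 and 6.43, 7.71 and 8.37 CPM in the activation-tagged line, against 8.99, 14.5 and 8.34 CPM in the reference line. The CRISPR/Cas libraries were the 3 lowest of all 15, and the GLDT::NAC052 and reference libraries overlapped. XTH32 was 2.32-fold lower in CRISPR/Cas than in the reference line (log2 -1.21 ± 0.23 SE, adjusted p = 0.00221). Without reference replicate 2 this was -0.93 and inside the fold limit. XTH32 differed by 0.79 ± 0.22 on the log2 scale in GLDT::NAC052 (adjusted p = 0.0125, fold 1.73), and without reference replicate 2 it was called higher there (log2 1.08, adjusted p = 0.00273). It was 4.01-fold lower in CRISPR/Cas than in GLDT::NAC052 (log2 -2.00 ± 0.23, adjusted p = 1.65e-05) and 3.18-fold lower than in GLDT::5'truncatedNAC052 (log2 -1.67 ± 0.23, adjusted p = 0.00017).

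Per kilobase of exon, the ratio of XTH31 to XTH32 was 0.0443, 0.0848 and 0.0262 in GLDT::NAC052, 0.177, 0.152 and 0.190 in CRISPR/Cas, 0.713, 0.702 and 0.213 in GLDT::5'truncatedNAC052 and 0.244, 0.512 and 0.719 in the activation-tagged line, against 0.361, 1.21 and 0.567 in the reference line. The GLDT::NAC052 libraries held the 3 lowest ratios and the CRISPR/Cas libraries the next 3. These ratios restate the levels above and were not tested.

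**Figure D4:**
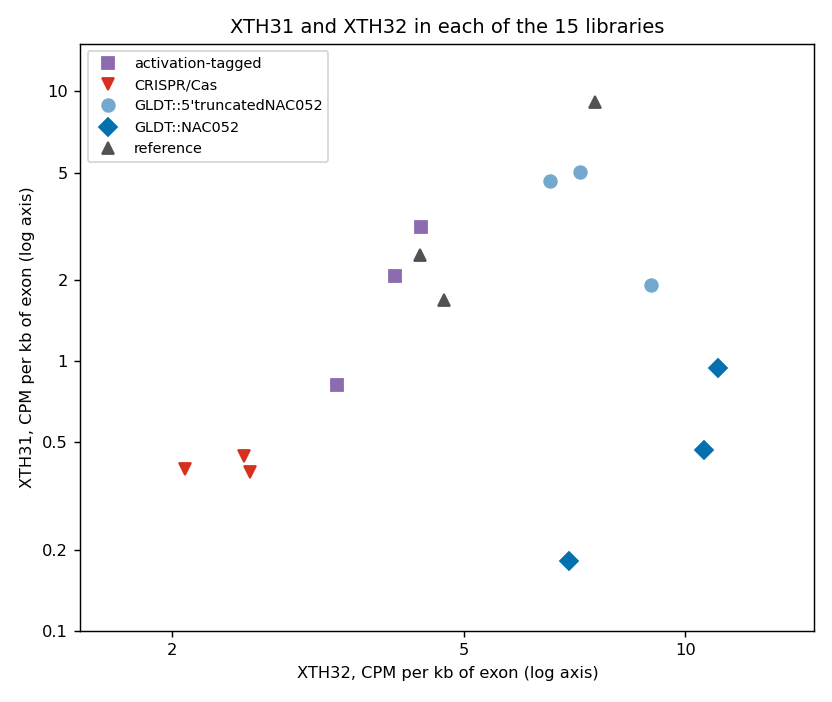
XTH31 against XTH32 (CPM per kilobase of exon, log axes), with 1 symbol per library and line. The GLDT::NAC052 libraries sit low for XTH31 and high for XTH32, the CRISPR/Cas libraries are low for both, and the reference library at the top is replicate 2.

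XTH33 had 0.253, 0.212 and 0.578 CPM in CRISPR/Cas, 1.56, 1.16 and 1.12 CPM in GLDT::NAC052, 1.64, 1.73 and 2.12 CPM in GLDT::5'truncatedNAC052 and 0.633, 0.393 and 0.528 CPM in the activation-tagged line, against 2.05, 1.06 and 0.616 CPM in the reference line. The CRISPR/Cas libraries, at 9 to 23 counts, lay below all libraries of the reference and GLDT lines, and reference replicate 1 was the highest of its line. XTH33 was 3.57-fold lower in CRISPR/Cas than in the reference line (log2 -1.84 ± 0.45 SE, adjusted p = 0.00989), but without reference replicate 1 the log2 fold change was -1.26 and was not called (adjusted p = 0.0552). Within lane 8 it was 5.22-fold lower in CRISPR/Cas than in GLDT::5'truncatedNAC052 (adjusted p = 0.0014) and 3.65-fold lower than in GLDT::NAC052 (adjusted p = 0.00405), calls that held without any of the libraries.

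XTH27, XTH28 and XTH30 of group 3 were called in no comparison. XTH27 had 135, 158 and 132 CPM in the activation-tagged line, 102, 103 and 94.5 CPM in CRISPR/Cas, 147, 156 and 109 CPM in GLDT::5'truncatedNAC052 and 89.0, 102 and 92.1 CPM in GLDT::NAC052, against 126, 152 and 117 CPM in the reference line. CRISPR/Cas and GLDT::NAC052 lay wholly below the reference line, with log2 differences of -0.40 (adjusted p = 0.0419) and -0.48 (adjusted p = 0.0126) that stayed within the fold limit. XTH30 had 3.71, 3.95 and 4.88 CPM in CRISPR/Cas against 6.05, 6.20 and 6.39 CPM in the reference line, without overlap (log2 -0.57, adjusted p = 0.0406), which is inside the fold limit too. It was also lower in CRISPR/Cas than in GLDT::5'truncatedNAC052 by adjusted p alone (log2 -0.63, adjusted p = 0.0233). The GLDT::NAC052 libraries of XTH30 lay wholly below the reference line as well (log2 -0.28, adjusted p = 0.266). XTH28 stayed between 29.2 and 36.0 CPM in all 15 libraries.

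Of group 1, 4 members were called, and all of them fell against the reference line. XTH4 and XTH8 fell in CRISPR/Cas, and XTH7 and XTH9 fell in GLDT::NAC052. XTH9 is known for a part in stem and internode growth.

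XTH4 had 93.7, 90.9 and 74.6 CPM in CRISPR/Cas, 133, 121 and 92.5 CPM in GLDT::NAC052, 169.5, 143 and 109 CPM in GLDT::5'truncatedNAC052 and 168, 157 and 196 CPM in the activation-tagged line, against 238, 203 and 203 CPM in the reference line. All 12 libraries of the other lines were below all 3 reference libraries. The fold change was 0.402 in CRISPR/Cas (log2 -1.32 ± 0.17 SE, adjusted p = 0.000245), the only call for this gene, and it held under every alternative run. The log2 fold changes of -0.90 in GLDT::NAC052 (adjusted p = 0.00126) and -0.62 in GLDT::5'truncatedNAC052 (adjusted p = 0.0441) were short of the fold limit, and that of -0.31 in the activation-tagged line did not pass (adjusted p = 0.338).

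XTH8 had 7.67, 5.90 and 4.68 CPM in CRISPR/Cas, 14.4, 9.34 and 7.79 CPM in GLDT::NAC052, 10.6, 8.73 and 10.4 CPM in GLDT::5'truncatedNAC052 and 10.13, 5.78 and 10.6 CPM in the activation-tagged line, against 16.5, 12.7 and 11.3 CPM in the reference line. The CRISPR/Cas, activation-tagged and GLDT::5'truncatedNAC052 libraries all lay wholly below the reference libraries. The activation-tagged line (log2 -0.61, adjusted p = 0.231) and GLDT::5'truncatedNAC052 (log2 -0.44, adjusted p = 0.342) were not called. CRISPR/Cas was called, at a fold change of 0.450 (log2 -1.15 ± 0.26 SE, adjusted p = 0.00747). Without reference replicate 1 the log2 fold change was -0.98 (adjusted p = 0.0312), which is inside the fold limit, and without CRISPR/Cas replicate 3 it was at that limit and was not called (adjusted p = 0.0371). Within lane 8, CRISPR/Cas differed from GLDT::5'truncatedNAC052 by -0.71 on the log2 scale (adjusted p = 0.0597) and from GLDT::NAC052 by -0.79 (adjusted p = 0.0268), neither of them called.

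XTH7 had 17.1, 25.7 and 11.03 CPM in GLDT::NAC052, 37.7, 53.6 and 20.4 CPM in GLDT::5'truncatedNAC052, 35.7, 55.3 and 29.9 CPM in CRISPR/Cas and 58.0, 65.2 and 60.6 CPM in the activation-tagged line, against 60.5, 59.0 and 51.8 CPM in the reference line. GLDT::NAC052 lay wholly below the reference line, and in the 3 lines of lane 8 the libraries of replicate 3 were the lowest and those of replicate 2 the highest. The fold change was 0.314 in GLDT::NAC052 against the reference line (log2 -1.67 ± 0.33 SE, adjusted p = 0.00191), and CRISPR/Cas was 2.25-fold higher than GLDT::NAC052 (log2 1.17 ± 0.33, adjusted p = 0.0113), which was not called without CRISPR/Cas replicate 2 (log2 0.87) or without GLDT::NAC052 replicate 3 (log2 0.90). GLDT::NAC052 differed from GLDT::5'truncatedNAC052 by -1.05 on the log2 scale without a call (adjusted p = 0.063). This difference was called with DESeq2 (log2 -1.04, adjusted p = 0.0155) and in the fit with a replicate block (log2 -1.04, adjusted p = 0.0133). It was also called without GLDT::5'truncatedNAC052 replicate 3 and without GLDT::NAC052 replicate 2.

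XTH9 had 23.8, 15.3 and 11.3 CPM in GLDT::NAC052, 25.2, 25.9 and 16.9 CPM in GLDT::5'truncatedNAC052, 38.2, 33.6 and 27.8 CPM in CRISPR/Cas and 37.9, 35.6 and 50.9 CPM in the activation-tagged line, against 43.6, 30.1 and 36.5 CPM in the reference line. GLDT::5'truncatedNAC052 lay wholly below the reference line without a call (log2 -0.70, adjusted p = 0.115). GLDT::NAC052 also lay wholly below the reference line, at a fold change of 0.457 (log2 -1.13 ± 0.25 SE, adjusted p = 0.00366). It was not called without reference replicate 1 (log2 -0.99) or without GLDT::NAC052 replicate 3 (log2 -0.91). CRISPR/Cas was higher than GLDT::NAC052 by 0.98 ± 0.25 on the log2 scale (adjusted p = 0.00614), just short of the fold limit. GLDT::NAC052 differed from GLDT::5'truncatedNAC052 by -0.43 without a call (adjusted p = 0.304).

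XTH6, the other abundant member of group 1, had 107, 131 and 148 CPM in the activation-tagged line, 90.7, 102 and 73.1 CPM in CRISPR/Cas, 132, 192 and 85.5 CPM in GLDT::5'truncatedNAC052 and 96.9, 93.2 and 51.1 CPM in GLDT::NAC052, against 106, 157 and 94.8 CPM in the reference line. Its libraries spread widely within lines and it was called in no comparison.

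The 12 tested members that were never called had log2 fold changes between -0.97 and 2.26. Both ends belong to members with uneven libraries. XTH19, the neighbour and close copy of XTH18, had 0.393, 2.33 and 3.07 CPM in CRISPR/Cas and 1.46, 1.47 and 2.33 CPM in GLDT::NAC052, against 0.111, 0.623 and 0.487 CPM in the reference line. The log2 fold changes of 2.26 ± 0.82 (adjusted p = 0.0595) and 2.12 ± 0.82 (adjusted p = 0.06) did not pass, although GLDT::NAC052 lay wholly above the reference line. With DESeq2 both passed (adjusted p = 0.0261 and 0.0294). XTH15 had 6.49 CPM in reference replicate 1 but 1.71 and 0.844 CPM in the others, and its log2 fold change was -0.97 in the activation-tagged line. Without that replicate XTH15 was called higher in GLDT::5'truncatedNAC052 (log2 2.55, adjusted p = 0.0482) and in GLDT::NAC052 (log2 2.32, adjusted p = 0.0123). The other 10 lay between -0.76 and 0.67, and among them XTH22 (TCH4), the touch-induced member, stayed between 27.9 and 51.0 CPM in all 15 libraries.

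In the activation-tagged line no member was called (also 0 with DESeq2). By adjusted p without the fold limit 0 of 22 members passed (edgeR), beside 3.65% of all tested genes. XTH30 came closest, with 8.61, 11.9 and 9.25 CPM in the activation-tagged line against 6.05, 6.20 and 6.39 CPM in the reference line (log2 0.67 ± 0.19, adjusted p = 0.0623). Its libraries did not overlap, which held for 4 of 22 members and for 27.4% of all tested genes in this comparison.

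In GLDT::5'truncatedNAC052 against the reference line, the call of XTH23 held in all 6 fits that left out a library (log2 1.47 to 2.11), whereas that of XTH18 held in 1 of 6, with log2 fold changes of 1.27 to 1.84. Neither gene was called when only the 6 libraries compared were fitted. For GLDT::NAC052 against GLDT::5'truncatedNAC052, all 4 calls (XTH18, XTH23, XTH24 and XTH31) were lost without GLDT::5'truncatedNAC052 replicate 1, without its replicate 2, without GLDT::NAC052 replicate 3, and when only these 6 libraries were fitted. Each of the 4 held in 2 of 6 fits that left out a library. In CRISPR/Cas against the reference line, leaving out reference replicate 1 reduced the 6 calls to 3.

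ATXTH17, counted apart, had 0, 0.0235 and 0.0251 CPM in CRISPR/Cas (0 to 1 count), 0.528, 0.257 and 0.381 CPM in GLDT::NAC052, 0.618, 0.0279 and 0.217 CPM in GLDT::5'truncatedNAC052 and 0.127, 0.0787 and 0.910 CPM in the activation-tagged line, against 0.416, 0.872 and 0.487 CPM in the reference line. It was called lower in CRISPR/Cas than in the reference line (adjusted p = 0.0119). Its coding sequence is 85.6% identical to that of XTH18 and 80.8% to that of XTH19.

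The genes that make and trim xyloglucan were counted in the same way. All 18 listed genes were tested, 15 for synthesis (the CSLC glucan synthases, XXT xylosyltransferases, MUR3, XLT2, FUT1 and the acetyltransferases AXY4 and AXY4L) and 3 for trimming (XYL1, BGAL10 and AXY8). Against the reference line, BGAL10 and XXT3 were called in CRISPR/Cas, where 6.73% of all tested genes were called, and none of the 18 was called in another line. By adjusted p without the fold limit, 5 of 15 synthesis genes passed in CRISPR/Cas (all lower) and 6 of 15 in GLDT::NAC052 (4 higher and 2 lower), beside 23.8% and 34.3% of all tested genes. In CRISPR/Cas against GLDT::NAC052 12 of 15 passed so, 2 higher and 10 lower, beside 41.4% of all tested genes. BGAL10, a beta-galactosidase that removes galactose from xyloglucan, had 63.0, 66.8 and 68.5 CPM in CRISPR/Cas against 147, 140.5 and 118 CPM in the reference line (log2 -1.03 ± 0.13, adjusted p = 0.000265). XXT3, a xylosyltransferase gene, had 0.786, 1.20 and 1.11 CPM in CRISPR/Cas against 2.05, 2.21 and 2.17 CPM in the reference line (log2 -1.05 ± 0.25, adjusted p = 0.00864), and it was also lower in CRISPR/Cas than in GLDT::NAC052 (log2 -1.10, adjusted p = 0.00287). For both genes the CRISPR/Cas and reference libraries did not overlap, which held for 47.2% of all tested genes in this comparison.

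The summed leaf markers were 53600 to 59300 CPM in the activation-tagged line, 37200 to 42900 CPM in CRISPR/Cas, 38600 to 47800 CPM in GLDT::5'truncatedNAC052 and 38000 to 46900 CPM in GLDT::NAC052, against 46800 to 50300 CPM in the reference line. The activation-tagged libraries lay wholly above the reference libraries and the CRISPR/Cas libraries wholly below them. Of the leaf markers, only CA1 was called against the reference line, lower in CRISPR/Cas (log2 -1.03, adjusted p = 0.00348). In GLDT::NAC052, RBCS1A, RCA and CA1 were lower by adjusted p alone and CAB1 was not. The 5 floral markers summed to 1.29 to 2.04 CPM in the activation-tagged line, 0.681 to 0.88 CPM in CRISPR/Cas, 0.815 to 1.87 CPM in GLDT::5'truncatedNAC052 and 0.609 to 0.72 CPM in GLDT::NAC052, against 1.4 to 1.61 CPM in the reference line, with AP1, AP3 and PI at 0 to 0.226 CPM in every library. The floral gene AG was called lower in GLDT::NAC052 (log2 -1.59, adjusted p = 0.00862). The 5 root markers summed to 4.52 to 5.9 CPM in the activation-tagged line, 3.59 to 6.46 CPM in CRISPR/Cas, 4.0 to 5.83 CPM in GLDT::5'truncatedNAC052 and 3.96 to 5.68 CPM in GLDT::NAC052, against 4.8 to 7.6 CPM in the reference line, nearly all of it ESB1. The floral sums of CRISPR/Cas and GLDT::NAC052 lay wholly below those of the reference line, whereas the root sums overlapped. The part of the leaf and floral differences in the calls of these lines was not tested.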

How the data were processed

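Complete rosettes of 5 Arabidopsis lines (3 biological replicates each, 15 libraries) were analysed by stranded mRNA sequencing with single reads of 150 bases. Per the study's methods, bcl2fastq demultiplexed the reads, which were then trimmed and mapped to TAIR10 in CLC Genomics Workbench, and differential expression was tested with DESeq2. The authors deposited whole-number read counts per gene without normalization. Of 21 value columns, 6 matched no described sample and were not used. How reads that map to several places were counted, and whether strand was used, are not given in the sources used here. The total of 28074380 to 38579309 counts per library sets the precision, and at this depth members with under 10 counts are set by few reads.

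Low genes were removed with filterByExpr (minimum count 10, minimum total 15, 3 libraries), which kept 19663 of 32833. Counts were tested with edgeR 4.0.16 in R 4.3.3 (TMM scaling, glmQLFit and glmQLFTest), fitting the 15 libraries together with line as the only factor, for 7 comparisons, with Benjamini-Hochberg adjustment over all tested genes. A call needed a fold change above 2 or below 0.5 and an adjusted p under 0.05. CPM are counts per 1000000, scaled by TMM, and RPKM are CPM per kilobase of exon of the RefSeq gene model. Standard errors are those of the log2 fold change implied by the test's F value. On counts simulated for GLDT::NAC052 against the reference line (19494 genes tested), 84 of 100 genes changed 2.5-fold and 85 of 100 changed 4-fold were called in the right direction, with 4 false calls. All other genes had the same mean share of the counts in every library. Lane and other line differences were not simulated, so the false calls give no error rate for the real comparison.

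The members and lists were chosen with earlier results of these data known. Values in every library are given for each member called in at least 1 comparison and for the 5 members with the highest mean RPKM. XTH15, XTH19, XTH25, XTH28, XTH30, ATXTH17, CA1, AG, BGAL10 and XXT3 were singled out after their values were seen. The deposited counts carry no coordinates, and genes were matched by identifier to RefSeq TAIR10.1 for positions and sequences. The sequence before the start of 1 further member is not reported here. Same-numbered libraries of GLDT::NAC052 and GLDT::5'truncatedNAC052 deviated together from their line means (correlations of 0.21, 0.20 and 0.59 for replicates 1, 2 and 3). In no other comparison was every correlation over 0.1. The reported values for GLDT::NAC052 against GLDT::5'truncatedNAC052 still come from the fit without replicate numbers. That pairing enters only the fit with a replicate block, an alternative. Alternatives were DESeq2 1.42.0, median-of-ratios scaling, library totals alone, other filters, only the 6 libraries compared, a replicate block, no fold limit and leaving out each library. Sequences were read with Biopython 1.88 and figures drawn with matplotlib 3.10.9.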

Additional observations from a re-analysis of the deposited data

How the results depend on the processing

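Counts of called members stayed within 1.5 times the reported ones under DESeq2, median-of-ratios scaling, library totals alone and both other filters, in all 7 comparisons. Fitting only the 6 libraries compared left 0 calls in GLDT::5'truncatedNAC052 against the reference line (2 reported) and 0 in GLDT::NAC052 against GLDT::5'truncatedNAC052 (4 reported). Without the fold limit, 8 members passed in CRISPR/Cas against GLDT::5'truncatedNAC052 (4 reported), beside 28.6% of all tested genes. Leaving out each library gave 3 to 6 calls in CRISPR/Cas against the reference line (3 without reference replicate 1), 1 to 3 in GLDT::5'truncatedNAC052 against the reference line and 0 to 6 in GLDT::NAC052 against GLDT::5'truncatedNAC052. The causes were not tested. Of the 27 calls of single members, 15 held under every alternative with the fold limit that tested them, and no value changed its sign past the threshold. The filter of at least 10 counts in every library left out XTH33, so its calls had 12 such alternatives and those of the other members 13.

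With a replicate block, 5 members were called in GLDT::NAC052 against GLDT::5'truncatedNAC052, where XTH7 was added to the 4 reported. In each of the other comparisons, not every correlation between same-numbered libraries was over 0.1. There the block gave 7 calls in CRISPR/Cas and 7 in GLDT::NAC052 against the reference line (6 reported in each, XTH19 added). It gave 6 in CRISPR/Cas against GLDT::NAC052 (5 reported, XTH9 added) and changed no other call.

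Library totals alone, without TMM, moved the median log2 fold change of all tested genes to -0.11 in the activation-tagged line, 0.19 in CRISPR/Cas and 0.11 in GLDT::NAC052 against the reference line. The share of higher calls among all tested genes then was 64.8% in CRISPR/Cas (48.9% with TMM), 79.0% in GLDT::5'truncatedNAC052 (65.9%), 78.0% in GLDT::NAC052 (65.2%) and 52.9% in CRISPR/Cas against GLDT::5'truncatedNAC052 (42.1%). XTH8 in CRISPR/Cas (log2 -0.97) and XTH23 between the GLDT lines were then no longer called, whereas XTH19 (log2 2.45) and XTH24 (log2 1.12) in CRISPR/Cas and XTH19 in GLDT::NAC052 (log2 2.25) against the reference line, and XTH9 in CRISPR/Cas against GLDT::NAC052 (log2 1.06), were called. At 9 to 23 counts in CRISPR/Cas, XTH33 is among the members limited by depth, as is XTH31 at 22 to 23 counts there.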
